A study of Mus musculus with 16 samples.

Results

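The 10 genes described here encode or control the MHC class II machinery: the class II chain genes H2-Aa, H2-Ab1 and H2-Eb1, the invariant chain gene Cd74, the peptide exchange genes H2-DMa, H2-DMb1 and H2-DMb2, their antagonists H2-Oa and H2-Ob, and the transactivator gene Ciita. They were chosen by symbol, 10 of the 53700 gene lines in each deposited count file, with earlier results of these data known. All 10 had enough counts to be tested, among 17090 genes tested in all. The chain, DM and DO genes lie in the class II region of chromosome 17, Cd74 lies on chromosome 18 and Ciita on chromosome 16.

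MHC class II molecules show peptides from endocytosed protein to CD4+ T cells. An alpha and a beta chain pair in the endoplasmic reticulum, the invariant chain encoded by Cd74 fills their groove and steers them to endosomes, and the DM heterodimer then exchanges the remnant of the invariant chain for peptide, while DO restrains DM. Ciita does not bind DNA itself; it is recruited by factors that sit on the X and Y boxes of class II, Cd74, DM and DO promoters. Microglia, the resident macrophages of the brain, are known for low class II expression in the healthy adult brain and for higher expression when activated or aged.

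RNA was sequenced from microglia sorted from whole brains of mice labelled wt (WT) or ko (KO) for Ercc1, which encodes a subunit of a DNA repair endonuclease. There were 4 groups of 4 libraries, all on a C57Bl6J/FVB cross background: WT and KO at 6 weeks of age, each with 2 males and 2 females, and WT and KO at 12 weeks, each with 3 males and 1 female. The sources used here do not give the knockout allele or any driver of its deletion. The gate kept CD11b-high, CD45-intermediate, Ly6c-negative cells that excluded DAPI, and all 10 microglia markers checked, such as P2ry12 and Tmem119, had counts in every library. Since the labels do not say that libraries came from separate animals, p values measure only the spread between these libraries, which may be technical.

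Libraries held 7882182 to 22142972 counts. Levels are given as CPM, the usual depth-scaled count, on library totals scaled by TMM, and 3 counts, the limit that a count of 0 allows, were worth 0.135 to 0.381 CPM per library on unscaled totals; such limits cover counting error only. Ercc1 lay at 13.5 to 30.6 CPM in 6-week WT and 2.82 to 4.54 CPM in 6-week KO libraries, and at 7.46 to 49.2 CPM in 12-week WT and 0.425 to 6.77 CPM in 12-week KO libraries, with no overlap at either age. It missed the threshold over all genes (edgeR adjusted p = 0.209 at 6 weeks and 0.105 at 12 weeks), and DESeq2 called it lower at both ages while limma called it at neither. The 12-week WT libraries are numbered 3, 4, 5_6 and 8. The library labelled male and 5_6 had 339.5 CPM of Xist and 109 CPM of summed Y-linked genes, where the other 9 male libraries had at most 11.5 CPM of Xist and at least 258 CPM of the Y-linked genes. The labels do not say whether it pools animals. Principal components of log2 CPM set 2 of the 12-week WT libraries furthest off. WT replicate 3 scored 155 on component 2, with 12-week KO replicate 4 next at 41.0. WT replicate 8 scored 132.5 on component 3, with 12-week KO replicate 4 again next at 72.5. That KO library also stood apart on component 3, where 12-week KO replicate 2 came after it at 9.97.

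Promoter sequence of RefSeq (build GRCm38.p6, 250 bases before to 50 after each annotated start) was at hand for 7 of the 10 genes, not for H2-Ab1, Cd74 and Ciita. It is shown because the genes share the promoter element through which Ciita acts. The Y box core GATTGG, searched on both strands, is held by 16.1% of all 32851 promoter windows. All 7 genes held it on their own strand, H2-DMa at only 1 of its 2 annotated starts. The windows below run 5′ to 3′ on the gene's strand; capitals mark the Y box core and, where it was found, the X box motif GNNACNNAT ahead of it.
H2-Aa (minus strand, chr17:34287853-34287917): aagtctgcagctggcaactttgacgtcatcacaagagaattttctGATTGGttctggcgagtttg
H2-Eb1 (plus strand, chr17:34305762-34305826): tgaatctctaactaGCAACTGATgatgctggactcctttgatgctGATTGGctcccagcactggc
H2-DMa (plus strand, chr17:34125274-34125338): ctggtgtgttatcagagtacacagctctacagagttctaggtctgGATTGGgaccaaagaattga
H2-DMb1 (plus strand, chr17:34153084-34153148): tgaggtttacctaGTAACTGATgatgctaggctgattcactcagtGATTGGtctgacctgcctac
H2-DMb2 (plus strand, chr17:34145113-34145177): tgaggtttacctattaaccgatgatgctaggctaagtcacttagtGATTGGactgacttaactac
H2-Oa (plus strand, chr17:34092290-34092354): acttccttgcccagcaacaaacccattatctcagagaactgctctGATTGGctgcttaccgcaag
H2-Ob (plus strand, chr17:34238802-34238866): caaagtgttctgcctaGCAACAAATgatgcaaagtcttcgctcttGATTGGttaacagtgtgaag

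The Y box core ended 38 to 56 bases before the annotated start in H2-Aa, H2-Eb1, H2-DMb1, H2-Oa and H2-Ob, 85 bases before it in H2-DMb2 and 193 bases before it in H2-DMa. The X box motif, followed after a gap of 15 to 35 bases by GATTGG on the same strand, was found in H2-Eb1 with a gap of 22 bases, in H2-DMb1 with a gap of 23 and in H2-Ob with a gap of 20, against 0.210% of all windows. These are matches of letters, and no match says only that the letters are not in the window. The windows of H2-DMb1 and H2-DMb2 are alike over much of their length, as the genes are close copies of each other, so reads that fit both could be split between them by the counting.

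The comparison of KO with WT at each age asked how the Ercc1 KO genotype changed the RNA of these genes. Cd74 and H2-Ab1 rose at both ages, by 4.82-fold and 4.04-fold in mean CPM at 6 weeks and by 8.81-fold and 7.83-fold at 12 weeks. The DM alpha chain gene H2-DMa and the DM beta chain gene H2-DMb2 rose by smaller amounts at both ages, and the alpha chain gene H2-Aa rose at 12 weeks. The DO genes, H2-DMb1, H2-Eb1 and Ciita did not pass edgeR's test at either age. In bulk RNA, a larger number of cells with a gene and more of its RNA per cell cannot be told apart.

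At 6 weeks 4 of the 10 genes were higher in KO by edgeR's quasi-likelihood test (Benjamini-Hochberg adjusted p under 0.05), where 0.796% of the genes tested were, and 0 were lower. In 8 of the 10, all but H2-Oa and Ciita, every KO library lay above every WT library, as in 4.92% of the genes tested. At 12 weeks 5 of the 10 were higher, against 2.03% of the genes tested, and 0 were lower. Every KO library lay above every WT library in 8 of the 10, all but H2-Ob and Ciita, against 5.13%. The median log2 fold change over the 10 genes was 0.90 at 6 weeks and 1.01 at 12 weeks, beside medians of -0.02 and -0.03 over all genes tested. All 10 fitted changes were above 0 at both ages, and 9 of the 10, all but Ciita, had an unadjusted p under 0.05 at each. Over all 17090 genes tested, 8232 and 8197 fitted changes were above 0 at 6 and 12 weeks. An unadjusted edgeR p under 0.05 was found in 1250 and 2454 of the 17090. DESeq2 and limma also called 0 of the 10 genes lower.

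**Figure D1:**
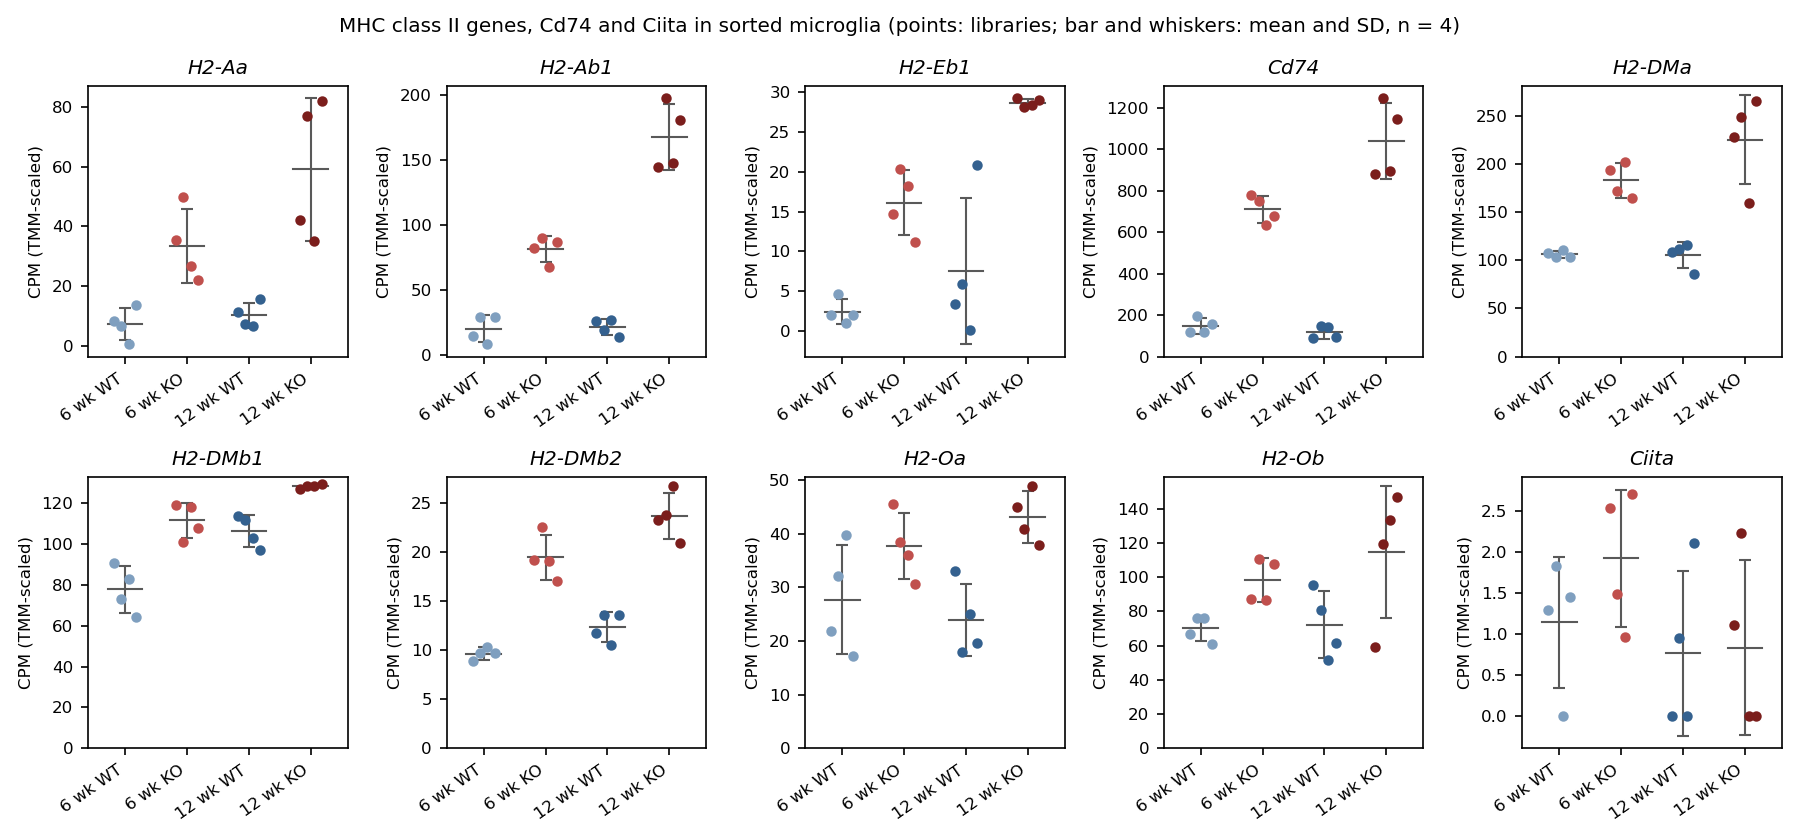
CPM on TMM-scaled library totals (y axis, one panel per gene, each with its own scale) in the 16 libraries, grouped by age and genotype (x axis). Points are libraries, and the bar and whiskers are the mean and SD (n = 4). Cd74 lay at 636 to 777 CPM in 6-week KO and 878 to 1246 CPM in 12-week KO libraries, above all 8 WT libraries, while Ciita had at most 2.70 CPM in any library.

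Cd74 encodes the invariant chain, the chaperone of class II assembly. In 6-week WT replicates 1 to 4 it had 117, 195, 119 and 158 CPM, and in 6-week KO replicates 1 to 4 it had 777, 751, 636 and 678 CPM. The lowest KO library lay far above the highest WT library. The 12-week WT replicates 3, 4, 5_6 and 8 had 87.6, 145, 145 and 94.9 CPM, and the 12-week KO replicates 1 to 4 had 878, 1246, 895 and 1145 CPM. The means were 147 ± 36.8 and 710.4 ± 64.7 CPM at 6 weeks and 118 ± 31.2 and 1041 ± 183 CPM at 12 weeks (SD, n = 4). The log2 fold change was 2.26 with an approximate standard error of 0.20 at 6 weeks (edgeR adjusted p = 4.65e-05) and 3.14 ± 0.21 at 12 weeks (adjusted p = 4.69e-07). Cd74 supplied 31.1% ± 5.21 of all counts of the 10 genes in 6-week WT and 54.9% ± 1.67 in 6-week KO libraries (SD, n = 4). At 12 weeks its share was 24.6% ± 5.55 in WT and 56.7% ± 1.56 in KO (SD, n = 4), with no overlap between the genotypes at either age. The 10 genes together held 0.0463% ± 0.00453 of all counts in WT and 0.126% ± 0.00925 in KO libraries at 6 weeks, and 0.0487% ± 0.00286 in WT and 0.185% ± 0.0255 in KO libraries at 12 weeks (SD, n = 4).

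H2-Ab1 encodes the beta chain of I-A, the class II molecule of the C57Bl6J strain. It had 14.6, 29.1, 8.14 and 29.0 CPM in 6-week WT replicates 1 to 4 and 81.9, 89.9, 67.6 and 86.8 CPM in the 6-week KO replicates 1 to 4. At 12 weeks WT replicates 3, 4, 5_6 and 8 had 26.1, 18.8, 27.0 and 13.7 CPM, and KO replicates 1 to 4 had 145, 197, 148 and 181 CPM. The genotypes were separate at both ages, and all 12-week KO libraries were also above all 6-week KO libraries. Means were 20.2 ± 10.6 (WT) and 81.5 ± 9.84 CPM (KO) at 6 weeks and 21.4 ± 6.29 and 168 ± 25.6 CPM at 12 weeks (SD, n = 4). The log2 fold change was 2.02 ± 0.34 at 6 weeks (edgeR adjusted p = 0.00637) and 2.96 ± 0.35 at 12 weeks (adjusted p = 0.00015). Log2 fold changes are given ± this approximate standard error throughout.

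H2-Aa encodes the alpha chain that pairs with the product of H2-Ab1. Its 6-week WT libraries had 8.30, 6.51, 0.474 and 13.7 CPM (replicates 1 to 4), and its 6-week KO libraries had 35.3, 49.8, 26.6 and 22.0 CPM. The WT spread was wide on a ratio scale, with replicate 3 resting on 6 counts. The difference, a log2 fold change of 2.36 ± 0.62, did not pass the edgeR test (adjusted p = 0.129), although no KO library fell within the WT range; DESeq2 gave an adjusted p of 0.00249 and limma made no call. At 12 weeks WT replicates 3, 4, 5_6 and 8 had 11.2, 7.41, 6.67 and 15.7 CPM, and KO replicates 1 to 4 had 42.0, 77.1, 35.2 and 81.9 CPM. KO replicates 2 and 4, which were also the highest for Cd74 and H2-Ab1, stood above replicates 1 and 3. H2-Aa rose at this age by a log2 fold change of 2.47 ± 0.61 (edgeR adjusted p = 0.0393). That call held in 5 of the 16 fits that left out 1 library, those without 6-week WT replicate 3 or 4, 6-week KO replicate 2 or 4, or 12-week KO replicate 1, with adjusted p between 0.00259 and 0.106 over all 16.

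H2-Eb1 encodes the beta chain of I-E, whose alpha chain gene H2-Ea is annotated as a transcribed pseudogene in the reference. It had 2.05, 4.68, 1.03 and 2.06 CPM in 6-week WT replicates 1 to 4 and 14.7, 20.4, 18.2 and 11.2 CPM in 6-week KO replicates 1 to 4. WT libraries were all below KO libraries. The log2 fold change of 2.72 ± 0.89 had an edgeR adjusted p of 0.303, which became 0.0338 without 12-week WT replicate 5_6, a library outside this comparison that enters the shared estimate of the spread. Of 16 fits that left out 1 library, that was the 1 past the threshold, with adjusted p up to 0.668 over all 16. At 12 weeks WT replicates 3, 4, 5_6 and 8 had 3.35, 5.89, 0.0877 and 20.9 CPM, and KO replicates 1 to 4 had 29.2, 28.2, 28.3 and 29.0 CPM. The KO libraries were nearly equal, while the WT libraries ran from near 0 to replicate 8, which approached the KO level. The fitted log2 fold change was 1.93 ± 0.85 (edgeR adjusted p = 0.304), and it was 3.30 without WT replicate 8 (adjusted p = 0.0520). That was the highest of the 16 fits that left out 1 library, which ran from 1.54 to 3.30, and 0 of the 16 passed the threshold. DESeq2 called H2-Eb1 higher at 6 weeks but not at 12, and limma at 12 weeks but not at 6. H2-Ea itself had counts in 3 of the 16 libraries and H2-Eb2 in 6, at most 4.39 and 3.60 CPM, and neither had enough counts to be tested.

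**Figure D2:**
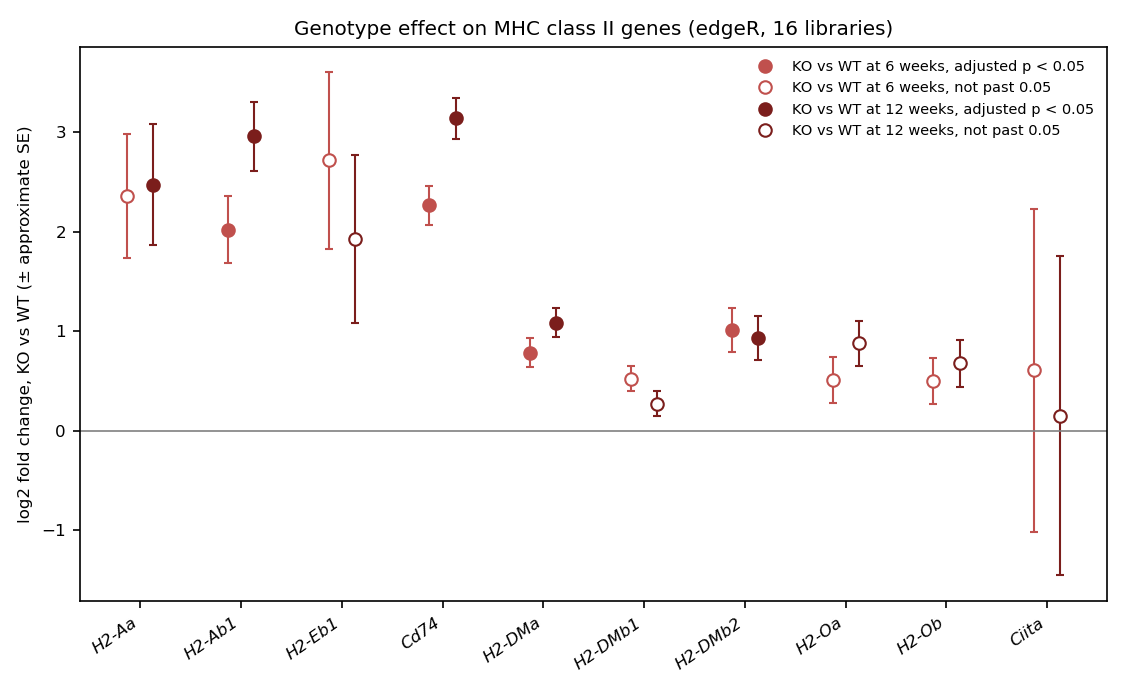
Log2 fold change of KO against WT (y axis) for each of the 10 genes (x axis) at 6 and at 12 weeks, from the edgeR fit to all 16 libraries; whiskers are the approximate standard error, and filled points passed an adjusted p of 0.05. Cd74 and H2-Ab1 are filled at both ages at 2.02 to 3.14, the DM and DO genes lie between 0.27 and 1.09, and Ciita has the widest whiskers.

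The DM genes encode the catalyst of peptide exchange, H2-DMa its alpha chain and H2-DMb1 and H2-DMb2 alternative beta chains. H2-DMa had 107, 104, 111 and 103 CPM in 6-week WT replicates 1 to 4 and 194, 172, 202 and 165 CPM in 6-week KO replicates 1 to 4. The 12-week WT replicates 3, 4, 5_6 and 8 had 109, 112, 116 and 85.7 CPM and the 12-week KO replicates 1 to 4 had 228, 249, 159.8 and 265 CPM. WT libraries were tightly grouped at both ages and KO libraries lay above all of them, with 12-week KO replicate 3, the female of that group, below the other 3. H2-DMa rose by a log2 fold change of 0.78 ± 0.15 at 6 weeks (edgeR adjusted p = 0.0168) and 1.09 ± 0.15 at 12 weeks (adjusted p = 0.000523). The 6-week call was lost without WT replicate 1, 2 or 4 or KO replicate 1 or 3, with adjusted p of 0.0637 to 0.0882 and log2 changes of 0.71 to 0.78.

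H2-DMb2 had 8.84, 9.70, 10.4 and 9.71 CPM in 6-week WT and 19.2, 22.6, 19.1 and 17.0 CPM in 6-week KO libraries (replicates 1 to 4). At 12 weeks it had 11.8, 13.6, 10.5 and 13.6 CPM in WT replicates 3, 4, 5_6 and 8 and 23.2, 23.8, 26.7 and 20.9 CPM in KO replicates 1 to 4. The groups did not overlap at either age. H2-DMb2 rose by a log2 fold change of 1.01 ± 0.22 at 6 weeks (edgeR adjusted p = 0.0441) and 0.93 ± 0.22 at 12 weeks (adjusted p = 0.0323). Limma called it at 6 weeks but not at 12, and DESeq2 at both. Both edgeR calls lie near the threshold: of 16 fits without 1 library, the 6-week call held in 2, those without 12-week WT replicate 3 or 8, and the 12-week call in 10, all but those without 6-week KO replicate 1, 12-week WT replicate 3 or 5_6, or 12-week KO replicate 1, 2 or 3.

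H2-DMb1, the copy with more counts, had 90.9, 73.2, 82.9 and 64.1 CPM in 6-week WT and 119, 101, 118 and 108 CPM in 6-week KO libraries (replicates 1 to 4). In the 12-week WT replicates 3, 4, 5_6 and 8 it had 114, 112, 103 and 97.0 CPM, and in the 12-week KO replicates 127, 129, 129 and 129 CPM. KO libraries were above WT libraries at both ages, but the gap at 12 weeks was small. Its log2 fold change was 0.52 ± 0.12 at 6 weeks (edgeR adjusted p = 0.0731) and 0.27 ± 0.12 at 12 weeks (adjusted p = 0.327). DESeq2 and limma both called it higher at 6 weeks, and neither did at 12. The ratio of H2-DMb1 to H2-DMb2 counts was 6.60 to 10.3 in WT and 4.48 to 6.34 in KO libraries at 6 weeks, and 7.12 to 9.77 in WT and 4.82 to 6.18 in KO libraries at 12 weeks. At each age every KO library had a lower ratio than every WT library; this ratio was chosen after its values were seen and was not tested, and the split of shared reads between the copies was not tested either.

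H2-Oa and H2-Ob encode the alpha and beta chains of DO, the inhibitor of DM that is best known from B cells. H2-Oa had 21.8, 32.1, 39.8 and 17.1 CPM in 6-week WT and 45.6, 38.3, 36.0 and 30.6 CPM in 6-week KO libraries (replicates 1 to 4), so the groups overlapped. At 12 weeks it had 33.0, 17.9, 25.0 and 19.6 CPM in WT replicates 3, 4, 5_6 and 8 and 45.0, 40.8, 48.9 and 37.9 CPM in the KO replicates, without overlap. For H2-Oa the log2 fold change was 0.51 ± 0.23 at 6 weeks (edgeR adjusted p = 0.637) and 0.88 ± 0.23 at 12 weeks, where the adjusted p of 0.0513 just missed the threshold, DESeq2 gave 0.00578 and limma made no call. H2-Ob had 67.0, 76.3, 75.9 and 60.8 CPM in 6-week WT and 87.5, 111, 86.8 and 108 CPM in 6-week KO libraries. At 12 weeks it had 95.4, 81.0, 51.3 and 61.5 CPM in WT and 59.2, 119, 133 and 147 CPM in KO libraries. KO replicate 1 fell among the WT libraries and the other 3 KO libraries lay above them. For H2-Ob the log2 fold change was 0.50 ± 0.23 at 6 weeks (edgeR adjusted p = 0.670) and 0.68 ± 0.23 at 12 weeks (adjusted p = 0.156). Without 12-week KO replicate 1 the 12-week change was 0.90 (adjusted p = 0.0177), the highest of 16 fits that left out 1 library. Those fits ran from 0.51 to 0.90 with adjusted p up to 0.353, and 1 of the 16 passed the threshold.

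Ciita was the least abundant of the 10 genes. It had 12, 16, 0 and 12 counts in 6-week WT replicates 1 to 4, 26, 26, 9 and 47 in 6-week KO replicates 1 to 4, 0, 10, 0 and 20 in 12-week WT replicates 3, 4, 5_6 and 8, and 11, 21, 0 and 0 in 12-week KO replicates 1 to 4. In 5 of the 16 libraries, the deepest among them, it had no count, and the groups overlapped at both ages. Mean levels were 1.14 ± 0.795 and 1.92 ± 0.835 CPM in 6-week WT and KO and 0.765 ± 1.00 and 0.836 ± 1.07 CPM in 12-week WT and KO libraries (SD, n = 4). Its log2 fold change was 0.61 ± 1.63 at 6 weeks (edgeR adjusted p = 1.00) and 0.15 ± 1.60 at 12 weeks (adjusted p = 0.990). Both standard errors exceed the change seen for H2-DMa at either age.

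The age comparisons asked whether the levels differed between 6 and 12 weeks within a genotype. In KO libraries 0 of the 10 genes passed edgeR's test, where 0.0234% of the genes tested did. Every 12-week KO library lay above every 6-week KO library in 4 of the 10 genes, H2-Ab1, H2-Eb1, Cd74 and H2-DMb1, as in 3.05% of the genes tested. H2-Ab1 had a log2 fold change of 1.02 ± 0.33 (adjusted p = 0.332) and Cd74 one of 0.51 ± 0.20 (adjusted p = 0.441); these 2 genes had an unadjusted p under 0.05, as did 1504 of the 17090 genes tested. DESeq2 called 1 gene, H2-Ab1, and limma 0. Fitted changes ran from -2.07 for Ciita to 1.02, with 9 of the 10 above 0 and a median of 0.30. Over all genes tested, 8233 of 17090 were above 0 and the median was -0.02.

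In WT libraries 0 of the 10 genes passed edgeR's test between ages, where 0.0117% of the genes tested did. H2-DMb1 was the gene with an unadjusted p under 0.05, at a log2 fold change of 0.45 ± 0.13 (adjusted p = 0.358). An unadjusted edgeR p under 0.05 was found in 1271 of the 17090 genes tested. For H2-DMb1 and H2-DMb2, 2 of the 10, every 12-week WT library lay above every 6-week WT library, as in 2.31% of the genes tested. DESeq2 called 1 gene, H2-DMb1, and limma 0. Cd74 had a log2 fold change of -0.36 ± 0.20 (adjusted p = 0.751) and H2-Ab1 one of 0.08 ± 0.33 (adjusted p = 0.998). The median over the 10 genes was 0.09, with 6 of the 10 above 0, beside 8306 of the 17090 genes tested.

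The difference between the genotype effects at 12 and at 6 weeks was tested directly, and 0 of the 10 genes passed in edgeR, against 0.00585% of the genes tested. DESeq2 and limma also called 0. Cd74, with a difference of 0.88 ± 0.27 on the log2 scale, was the gene with an unadjusted p under 0.05, and its edgeR adjusted p was 0.871. An unadjusted edgeR p under 0.05 was found in 810 of the 17090 genes tested. H2-Ab1 had a difference of 0.94 ± 0.46 (adjusted p = 1). The larger fold of both genes at 12 weeks therefore did not pass a test of its own.

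Compared per kilobase of annotated exon, the order of the genes differed little between groups except for the class II chain genes. Cd74 was highest in all 4 groups, with 87.7 ± 21.9 CPM per kilobase in WT and 423 ± 38.5 in KO libraries at 6 weeks, and 70.4 ± 18.6 in WT and 620.1 ± 109 in KO libraries at 12 weeks (SD, n = 4). In 12-week WT libraries its level was within 1 SD of that of H2-DMb1, at 63.3 ± 4.66, whereas in KO libraries it stood far above it. H2-Ab1 had rank 6 in both WT groups, at 7.87 ± 4.11 and 8.33 ± 2.45, and rank 4 in both KO groups, at 31.8 ± 3.83 and 65.3 ± 9.99 CPM per kilobase. In 12-week KO libraries its level did not differ beyond the spread from that of H2-DMa, at 65.4 ± 13.4. Lower in that group came H2-Oa at 30.7 ± 3.42, H2-Ob at 21.3 ± 7.17, and H2-Aa, H2-Eb1 and H2-DMb2 at 15.5 ± 6.27, 14.7 ± 0.256 and 13.6 ± 1.36. The means of H2-Ob, H2-Eb1 and H2-DMb2 lay within 1 SD of H2-Aa, by the SD of H2-Aa. In 6-week WT libraries H2-Aa and H2-Eb1 were at 1.91 ± 1.44 and 1.26 ± 0.803 CPM per kilobase, below all DM and DO genes. Ciita was last in all 4 groups, between 0.0802 and 0.202 CPM per kilobase.

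The factors that bind class II promoters and recruit Ciita showed no call by edgeR. Of 7 such genes tested, among them Rfx5, Rfxap and Rfxank of the X box complex and Nfya, Nfyb and Nfyc of the Y box complex, 0 passed at either age, 0 and 1 had an unadjusted p under 0.05 at 6 and 12 weeks, and the medians were -0.04 and -0.05. Limma called 0 at both ages and DESeq2 called 1 at 12 weeks, Nfyb, as lower. Rfx5 itself had log2 fold changes of 0.05 ± 0.56 and 0.07 ± 0.58. Irf1, an interferon-induced transcription factor that acts on the Ciita gene, had log2 fold changes of 0.07 ± 0.19 and 0.63 ± 0.19 (edgeR adjusted p = 1.00 and 0.108), and at 12 weeks DESeq2 called it higher and limma did not. Ifng, the gene of interferon gamma, had counts in 1 of the 16 libraries, 12-week KO replicate 1, at 1.11 CPM, and was not tested.

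Several genes that act on class II molecules after synthesis were also higher in KO. Of 10 genes of peptide loading and class II turnover, 4 rose at 6 weeks and 6 at 12 weeks, 0 were lower, and the medians were 0.62 and 0.69; edgeR, DESeq2 and limma each called 0 lower. Ctss, the cathepsin that trims the invariant chain, rose from 9465 ± 956 to 12984 ± 1060.2 CPM at 6 weeks and from 9917 ± 630.2 to 15361 ± 2002.5 CPM at 12 weeks (SD, n = 4; log2 0.46 ± 0.09 and 0.63 ± 0.09, edgeR adjusted p = 0.0307 and 0.00109). Ctsb, another endosomal protease, rose by 0.88 ± 0.08 and 1.19 ± 0.08 on the log2 scale, and Ctsl by 0.78 ± 0.11 and 0.74 ± 0.11. Cd83, which protects class II molecules from MARCH ubiquitin ligases, rose by 1.48 ± 0.21 and 1.92 ± 0.21 (edgeR adjusted p = 0.00147 and 7.36e-05). At 12 weeks Ifi30, the thiol reductase of antigen processing, rose by 1.09 ± 0.23 and Ctsd by 0.47 ± 0.09. At 6 weeks Ifi30 and Ctsd had changes of 0.87 ± 0.23 and 0.31 ± 0.09 that did not pass edgeR's test (adjusted p = 0.118 and 0.214). DESeq2 called Ifi30 higher at that age, and limma called both. Ctss, Ctsb, Ctsl and Cd83 are also general lysosomal or activation genes and are not particular to class II.

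Of 6 tested genes of costimulation and T cell contact, 0 passed edgeR's test at 6 weeks, with 1 at an unadjusted p under 0.05, and 2 rose at 12 weeks; DESeq2 called 1 at 6 weeks, Cd274, and limma 0. Cd274, the gene of the inhibitory ligand PD-L1, had 1.30, 1.99, 4.17 and 1.48 CPM in 12-week WT replicates 3, 4, 5_6 and 8 and 28.8, 33.2, 16.7 and 10.7 CPM in 12-week KO replicates 1 to 4 (log2 3.32 ± 0.44, edgeR adjusted p = 0.000428). Lag3, a receptor that binds class II molecules, had 138, 216, 152 and 386 CPM in the same WT libraries and 618, 576, 499.7 and 386 CPM in the KO libraries (log2 1.23 ± 0.29, adjusted p = 0.0291), with WT replicate 8 at the level of the lowest KO library. Of 3 tested ligands and partners of the Cd74 protein, 0 passed at either age in edgeR, 2 at each age had an unadjusted p under 0.05, and the medians were 1.07 and 0.78. DESeq2 called Cd44 and Mif higher at 6 weeks and Mif at 12 weeks, and limma called Cd44 at 6 weeks and 0 at 12 weeks.

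Several MHC class I genes, whose products show peptides to CD8+ T cells, rose as well. Of 9 genes of class I chains and loading, 3 passed at 6 weeks and 5 at 12 weeks, 0 were lower, and the medians were 0.49 and 1.43. The class I chain genes H2-K1 and H2-D1 rose by 1.73 ± 0.17 and 1.79 ± 0.17 on the log2 scale at 6 weeks and by 2.38 ± 0.18 and 2.73 ± 0.18 at 12 weeks, and B2m, the shared light chain, by 0.98 ± 0.12 and 1.43 ± 0.12. Tap1 and Psmb8, the peptide transporter and immunoproteasome genes that lie inside the class II region, rose at 12 weeks by 1.76 ± 0.28 and 0.64 ± 0.16 (edgeR adjusted p = 0.0021 and 0.0384).

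**Figure D3:**
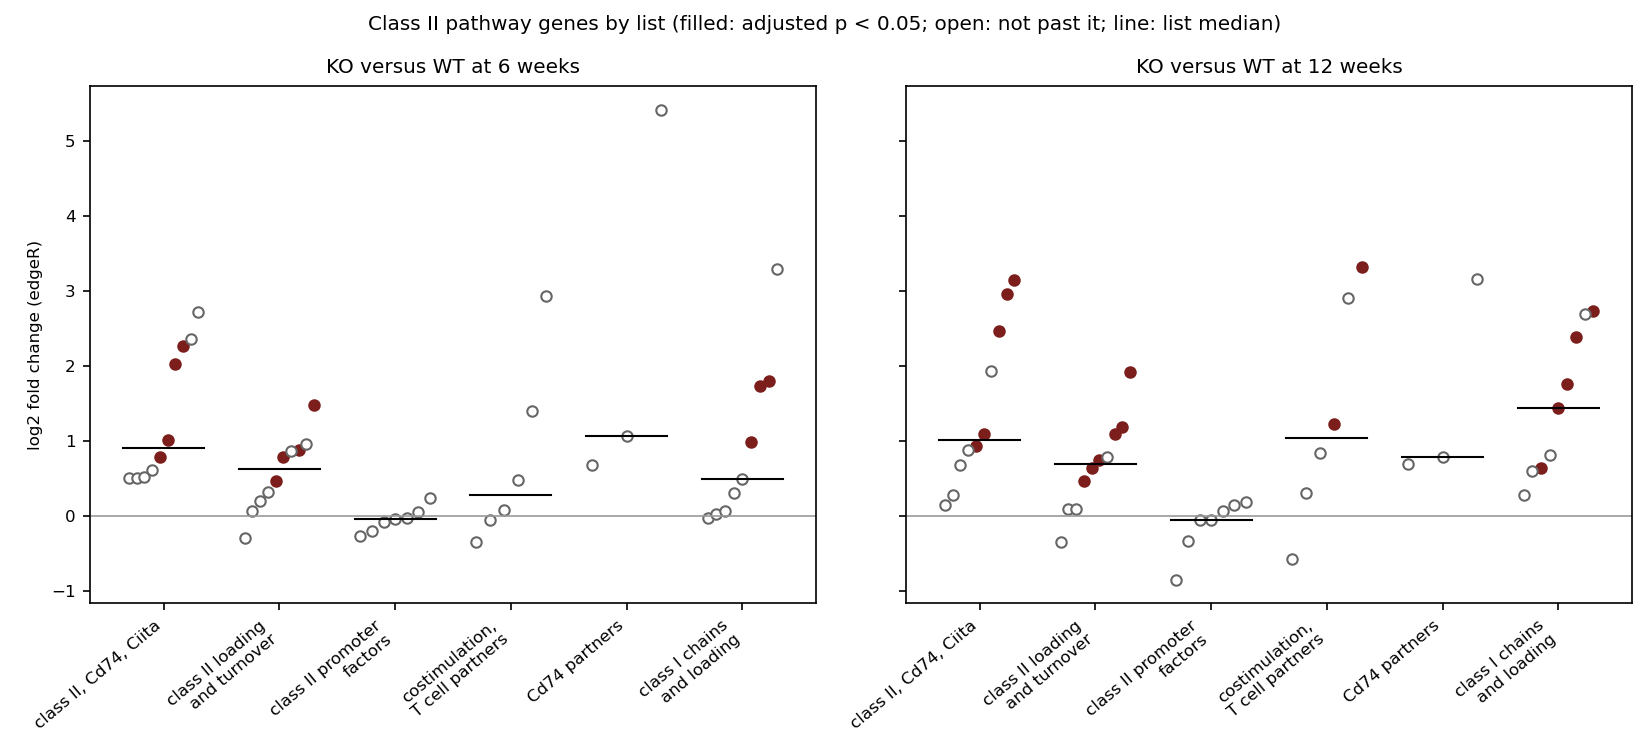
Log2 fold change of KO against WT (y axis) at 6 weeks (left) and 12 weeks (right) for every tested gene of 6 lists (x axis); filled points passed an edgeR adjusted p of 0.05, open points did not, and the black line is the list's median. The promoter factors lie around 0 with medians of -0.04 and -0.05, while the 10 class II genes, the loading genes and the class I genes lie mostly above 0.

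Fitted changes differed along the class II region. In RefSeq order along chromosome 17 the region runs H2-Oa, Brd2, H2-DMa, H2-DMb2, H2-DMb1, Psmb9, Tap1, Psmb8, Tap2, H2-Ob, Gm20506, H2-Ab1, H2-Aa, H2-Eb1, H2-Eb2 and H2-Ea. Brd2, a general chromatin reader that lies between H2-Oa and H2-DMa, had log2 fold changes of 0.06 at 6 weeks and -0.47 at 12 weeks, with edgeR adjusted p of 1.00 and 0.232. Tap1, between H2-DMb1 and H2-Ob, had -0.03 at 6 weeks (adjusted p = 1.00) and 1.76 at 12 weeks (edgeR adjusted p = 0.0021). The genes with the largest fitted changes, H2-Ab1, H2-Aa and H2-Eb1, are neighbours towards one end of the region, with values from 1.93 to 2.96 over both ages. H2-Eb1 passed the edgeR test at neither age, and H2-Aa passed it at 12 weeks only. The lowest of these values, 1.93 ± 0.85 for H2-Eb1 at 12 weeks, was close to that of Tap1 at that age.

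Markers of other cells that the sort could hold were measured beside these genes. The 10 microglia markers summed to 71753 to 78529 CPM in WT and 59812 to 70249 CPM in KO libraries at 6 weeks. At 12 weeks they summed to 65105 to 72738 CPM in WT and 51359 to 54005 CPM in KO libraries. EdgeR called 1 of them lower at 6 weeks, P2ry12, and 3 at 12 weeks, P2ry12, Cx3cr1 and Gpr34. Over all 17090 genes tested it called 13 and 163 lower. At 6 weeks DESeq2 and limma each called those 3 markers lower. At 12 weeks limma called the same 3 and DESeq2 called 5, with Sall1 and Siglech besides. Markers of border-associated macrophages, brain macrophages known for class II expression, were summed next. The 9 markers other than the abundant Stab1, which was set aside after its values were seen, summed to 53.7 to 96.4 CPM in WT and 138 to 316 CPM in KO libraries at 6 weeks, and 10.5 to 60.1 CPM in WT and 128 to 197 CPM in KO libraries at 12 weeks, so every KO library had more than every WT library of its age. With Stab1 the sums of the 10 were 257 to 324, 311 to 502, 227 to 271 and 283 to 375 CPM in the same order, and the genotypes then overlapped at 6 weeks. Of the 10, edgeR called 0 at 6 weeks, with 5 at an unadjusted p under 0.05, and 1 higher at 12 weeks, Ms4a7, and the medians were 1.64 and 2.0. DESeq2 called 1 of them higher at 6 weeks and 5 at 12 weeks, with Stab1 lower at 12 weeks, and limma called 2 and 1 higher. Mrc1, the mannose receptor gene, had 31.8, 18.6, 12.3 and 40.5 CPM in WT and 74.0, 109, 54.0 and 31.0 CPM in KO libraries at 6 weeks, and 0.324, 17.5, 19.6 and 16.5 CPM in WT and 48.1, 40.9, 61.2 and 78.3 CPM in KO libraries at 12 weeks.

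Within the KO groups the order of the libraries for these markers and for class II genes was mixed. In 12-week KO replicates 1 to 4 the 9 markers summed to 128, 172, 191 and 197 CPM, so replicate 3, among the lower libraries for Cd74, H2-Ab1 and H2-Aa, had more than replicate 2, among the higher ones. Single markers of the 9, compared after their values were seen, went both ways. Ms4a7 had 11.5, 29.2, 14.3 and 33.2 CPM and Cbr2 5.76, 14.2, 6.65 and 16.3 CPM in replicates 1 to 4. Cd163 had 5.86, 19.7, 6.65 and 12.2 CPM in the same libraries. Each of these markers was highest in replicates 2 and 4, as Cd74, H2-Ab1 and H2-Aa were. Mrc1, given above, was lowest in replicate 2, F13a1 was highest in replicate 3 at 71.8 CPM, and Cd209f was lowest in replicate 4 at 3.01 CPM. Clec12a was lowest in replicate 2, Pf4 was higher in replicate 3 than in replicate 2, and Lyve1 had no count in replicates 3 and 4. The 6-week KO replicate 2, with the highest sum of the 9 markers, was highest for H2-Aa, H2-Ab1 and H2-Eb1 but not for Cd74. The part of border-associated macrophages in the class II results was not tested.

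Markers of further cell types were summed in the same way. Of 8 monocyte markers the sums were 6.96 to 20.1, 9.37 to 36.7, 1.08 to 11.4 and 15.1 to 31.6 CPM for WT and KO at 6 weeks and WT and KO at 12 weeks. Of the 3 that could be tested 0 passed in edgeR at either age, 0 and 2 had an unadjusted p under 0.05, limma called 0, and DESeq2 called 0 at 6 weeks and 2 higher at 12 weeks. Dendritic cell markers summed to 38.4 to 54.4, 26.9 to 43.5, 43.0 to 51.0 and 28.7 to 62.1 CPM in the same order, with Clec9a at 0 in every library. The B cell list summed to 1021 to 1297 CPM over all libraries, of which Ighm held 929 to 1152 CPM. T and NK cell markers summed to at most 7.42 CPM, with Cd8a, Trbc2 and Ncr1 at 0 in every library. The part of monocytes in the class II results was not tested.

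**Figure D4:**
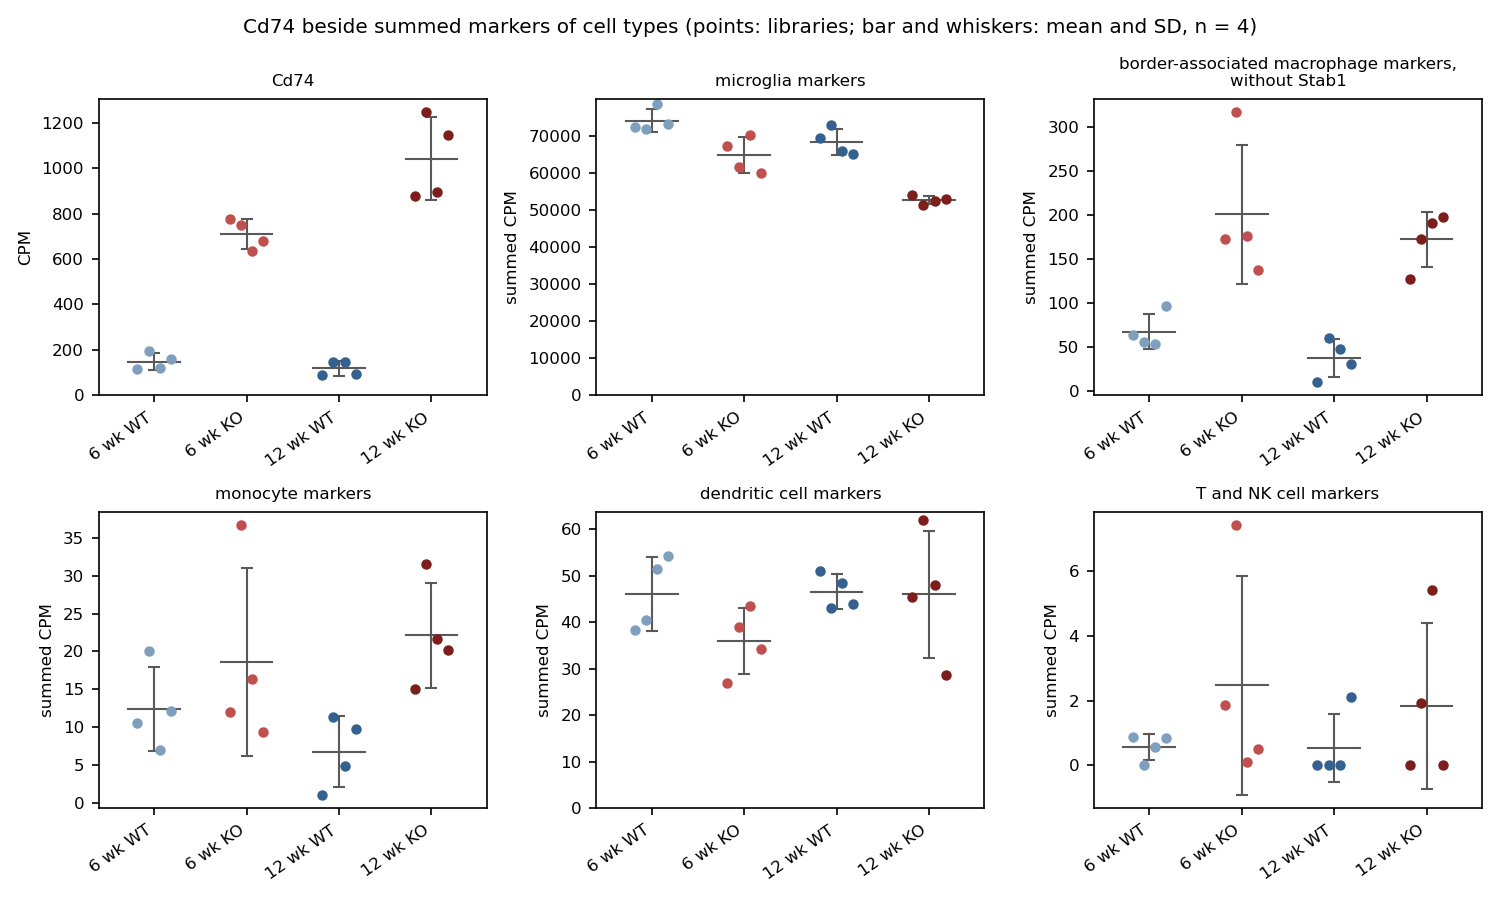
Cd74 (first panel, CPM) and the summed CPM of marker lists (other panels) in each library by age and genotype; points are libraries, and the bar and whiskers are the mean and SD (n = 4). The 9 border-associated macrophage markers without Stab1 lie at 128 to 316 CPM in KO and 10.5 to 96.4 CPM in WT libraries, far below the microglia markers; with Stab1, set aside after its values were seen, 6-week WT libraries reach 324 CPM and 6-week KO libraries start at 311 CPM.

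The likeness of other genes to the class II pattern was measured as Pearson's r of log2 CPM with the mean of the standardised levels of H2-Aa, H2-Ab1, H2-Eb1 and Cd74, over 16 libraries and 9868 genes with a mean of at least 5 CPM. The 8 most alike were Ifi27l2a (r = 0.960), Cd63-ps (0.953), Pdcd1 (0.952), Cd63 (0.949), Cst7 (0.948), Ifitm3 (0.946), Ctsz (0.946) and Lyz2 (0.937). These values take in the differences between the 4 groups and are given with no test. Cd63 and its pseudogene copy Cd63-ps may share reads. Among the other class II genes r was 0.919 for H2-DMb2, 0.874 for H2-DMa, 0.672 for H2-DMb1, 0.653 for H2-Ob, 0.587 for H2-Oa and 0.245 for Ciita. After group means were subtracted the leading genes were all different ones, D10Wsu102e (0.850), Nxpe3 (0.837), Incenp (0.825), Pcif1 (0.821), Eif4g1 (0.815), Gcsh (0.811), Rasgrp4 (0.803) and Gtpbp4 (0.792). Within groups H2-DMa and H2-DMb2 were then near 0 (0.05 and 0.02), H2-DMb1 and H2-Oa were below 0 (-0.50 and -0.47), H2-Ob was at 0.13 and Ciita, with few counts, was at 0.57.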

How the data were processed

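Raw read counts per gene were deposited by the authors for each of the 16 libraries, and no normalised table was used. Build GRCm39, HTSeq 0.11.0, TopHat, Picard 2.13.2, cutadapt 2.10, SAMtools 1.10 and FastQC 0.11.9 appear in the submitters' processing notes; annotation release and strand setting were not given in the sources used here. Class II chain genes are highly polymorphic and the mice are a cross of strains, so reads from a non-reference haplotype may be undercounted; this was not tested.

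Counts were tested in R 4.3.3 with edgeR 4.0.16: filterByExpr by group (minimum count 10, 17090 genes kept), TMM, robust quasi-likelihood fit to all 16 libraries with terms for group and sex (11 residual degrees of freedom, common dispersion 0.421), two-sided p values with Benjamini-Hochberg adjustment across all tested genes, threshold 0.05. The approximate standard error of a log2 change is its size over the root of its F statistic. Alternatives used DESeq2 1.42.0, limma 3.58.1 (voom with sample weights), other size factors, other filters, no sex term, a replicate block, each comparison's groups alone, and libraries left out.

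The genes and lists were chosen with earlier results of these data known. From the lists, genes past the threshold at either age were named, plus Rfx5, Irf1, Ifng and Ctss. The list of genes that induce Ciita is not reported here as a whole. Exon lengths came from GENCODE M21 and promoters and gene order from RefSeq, both on GRCm38, a build other than that of the counts.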

Additional observations from a re-analysis of the deposited data

How the results depend on the processing

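Cd74 and H2-Ab1 passed the threshold at both ages in all 25 alternatives, at log2 changes of 2.13 to 2.48 and 1.74 to 2.32 at 6 weeks and 2.87 to 3.27 and 2.79 to 3.15 at 12 weeks. The number of the 10 genes called at 6 weeks was 4 and became 7 with DESeq2, and 2 to 4 when 1 library was left out; it was 2 without WT replicate 1, 2 or 4 or KO replicate 1 or 3 of that age. At 12 weeks it was 5 and became 3 without WT replicates 3 and 8 together, and 3 to 6 when 1 library was left out. Between ages in KO it was 0 and became 1 with DESeq2 and 2 with no filter on low counts, and in WT it was 0 and became 1 with DESeq2. For the difference of the KO effects it was 0 and became 1 with no filter; leaving out 1 library gave 0 to 0 in these 3 comparisons. Deviations of same-numbered libraries from their group means correlated at -0.0275 to 0.0623. Differently numbered libraries were not measured beside them, so these values cannot settle whether the numbers pair libraries. With the replicate block, 2 of the 10 genes were called at 12 weeks and 3 at 6 weeks. The share of all genes called in each alternative is not given here. A higher or lower count of the 10 genes therefore need not be particular to them. The fitted change of Ciita at 12 weeks was -1.23 with the replicate block and between -0.89 and 1.35 when 1 library was left out, and that of H2-Ab1 between ages in WT was between -0.18 and 0.35. The cause of these changes was not tested. Low counts limit the precision of Ciita, which had 0 to 47 counts per library.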
